A study of Homo sapiens with 23 samples.

Results

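The genes described here are 31 genes of cholesterol and fatty acid synthesis, matched by symbol in a table of normalized counts. All 31 were found, and all 31 had a mean of at least 10, which 16063 of the 27589 genes in the table reached. They comprised 8 genes of the mevalonate pathway, 11 genes of the steps from squalene to cholesterol, 4 regulators and sterol carriers, and 8 genes of fatty acid and glycerolipid synthesis. The first 19 are called the sterol branch below and the last 8 the fatty acid branch.

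RNA was measured in tumours grown from SCC-13, an established human line of cutaneous squamous cell carcinoma. The cells were either hFWE WT or hFWE KO, where hFWE is human Flower, the product of CACFD1, a multipass membrane protein. WT tumours came from the lines 5B2, 6C9 and 6C10, with 4 tumours each, and KO tumours came from 2F7, with 3 tumours, and from 2B8 and 1G10, with 4 each. All 23 tumours grew under the skin of NCG mice (NOD-Prkdcem26Cd52Il2rgem26Cd22/NjuCrl), immunodeficient animals that keep their own stroma and vessels, and were taken on day 26. The lines are known by code only, and each has 1 genotype, so genotype is replicated over 3 lines on either side. The labels do not tie tumours to single mice, and the p-values reflect only the spread among these tumours. Tumours are named by line and specimen number.

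Cholesterol and fatty acids are both built from cytosolic acetyl-CoA. The mevalonate pathway turns it into isoprenoids, which squalene synthase commits to sterols, while acetyl-CoA carboxylase and fatty acid synthase make saturated fatty acids that desaturases and elongases then modify. The transcription factors encoded by SREBF1 and SREBF2 are held in endoplasmic reticulum membranes and become active when sterols are scarce. They switch on both branches, SREBF2 mainly the sterol genes and SREBF1 mainly the fatty acid genes, and INSIG1 helps to hold them back. In epidermis, keratinocytes that differentiate make cholesterol and fatty acids for the lipid layers of the skin barrier.

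The promoter sequence of 3 members is shown because they stand for the patterns described below, MSMO1 for the sterol genes that were lower in KO tumours, LSS for the single sterol gene that was higher, and SCD for the fatty acid gene most like SREBF1. Each line is the longest stretch within the 250 bases before the RefSeq start (GRCh38.p14) that no GENCODE 29 exon covers, written 5′ to 3′ on the strand of the gene. Capitals mark CCAAT, or ATTGG where it lies on the opposite strand, the motif of the factor NF-Y, which acts beside the SREBF proteins at sterol genes.
MSMO1, chr4:165327419-165327622, plus strand: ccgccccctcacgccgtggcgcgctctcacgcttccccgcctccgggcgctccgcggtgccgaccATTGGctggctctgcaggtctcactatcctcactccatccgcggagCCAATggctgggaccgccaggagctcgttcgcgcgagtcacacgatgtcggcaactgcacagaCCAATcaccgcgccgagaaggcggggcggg
LSS, chr21:46228825-46229024, minus strand: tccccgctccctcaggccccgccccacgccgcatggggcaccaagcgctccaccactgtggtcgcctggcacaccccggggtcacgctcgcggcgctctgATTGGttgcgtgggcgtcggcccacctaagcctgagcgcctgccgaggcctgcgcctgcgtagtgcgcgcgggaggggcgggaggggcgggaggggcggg
SCD, chr10:100346983-100347123, plus strand: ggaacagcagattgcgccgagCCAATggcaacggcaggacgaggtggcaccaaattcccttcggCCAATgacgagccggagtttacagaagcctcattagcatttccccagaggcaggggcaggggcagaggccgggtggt

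The 3 stretches hold 3, 1 and 2 such motifs. Promoter windows of 300 bases, 250 before and 50 after the start, were matched by symbol for 27 of 31 members, with 40 windows in all. CCAAT on either strand was present in a window of 21 of the 27 genes (77.8%), against 39.7% of 27305 RefSeq genes, and 2 or more were present in 14 (51.9%), against 12.9%. Each gene was counted by its window with most matches, and the 27305 genes had 35116 windows, fewer per gene than the members. The RefSeq genes were not limited to those expressed in the tumours. By role, 6 of 7 mevalonate genes, 8 of 9 squalene and sterol genes, 3 of 4 regulators and 4 of 7 fatty acid genes held it. LSS and MSMO1, which differed in direction between the genotypes, both held it, and PMVK did not. The spelling TCACNCCAC, one form of the sterol regulatory element, was present in SREBF2 alone among the 27 (3.7%), against 1.4% of all genes. Both strands were searched for both motifs, and matches of CCAAT on opposite strands can share letters, as 1 pair does in IDI1 and in NSDHL. A match in a window is a description of its letters and does not show binding.

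Libraries differed in depth, and the shallowest was extreme for several members. Depth and RNA quality were not told apart by a test. Estimated assigned reads were 13082214 to 22093213 in 21 libraries, 7011069 in WT 6C9 specimen 5532 and 2037751 in WT 6C9 specimen 5533. In specimen 5533 the median correlation with the other libraries was 0.763, against 0.943 or more elsewhere, and mitochondrially encoded transcripts took 6.21% of the signal, against 1.39% to 3.5% in the 21 deepest libraries. Its values among the members mostly ran with the length of exon sequence per gene. The 16 members with under 5 kb of exon sequence were a median of 0.90 above the mean of the other tumours on the log2 scale, and the 15 longer members were 0.92 below it (Spearman rho = -0.75 across 31 members of 1 library, as a description). Members with much exon sequence, such as ACACA (137) and FASN (502), were low, and ones with little, such as PMVK (1790) and EBP (2037), were high. Exceptions included HMGCS1 (4.70 kb, -1.43), DHCR7 (4.16 kb, -1.01) and MVK (6.48 kb, 0.23), as log2 differences from the mean of the other tumours. FADS1 was at 0, where 3 reads would have been 27.4. Since line 6C9 is WT, differences between the genotypes are also given without specimen 5533 where it moved them by over 1.5 times. CACFD1 itself was 373 ± 47.1 in WT (SD, n = 12; range 286 to 432) and 276 ± 58.9 in KO tumours (SD, n = 11; 167 to 369.5). Those ranges overlapped (log2 difference -0.45, SE 0.11, limma adjusted p = 0.227), and the labels do not place the edit in the transcript.

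The members covered a wide range of abundance. Per kilobase of GENCODE exon sequence, the mean normalized count was highest for SCD, the desaturase that makes oleate (3348), followed by SQLE, the squalene epoxidase (1009.8), and MSMO1, which removes methyl groups from sterols (716). It was lowest for the desaturase FADS2 (4.24), the desaturase FADS1 (11.7) and the phosphatidate phosphatase LPIN1 (18.1). The coefficient of variation over all 23 tumours ran from 14.2% for LPIN1 to 43.0% for PMVK. Without specimen 5533 that of PMVK was 19.4%, and the most variable member was TM7SF2, a sterol reductase, at 38.8%. The least variable was then SREBF2, at 9.27%, with LPIN1 at 13.5%.

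**Figure D1:**
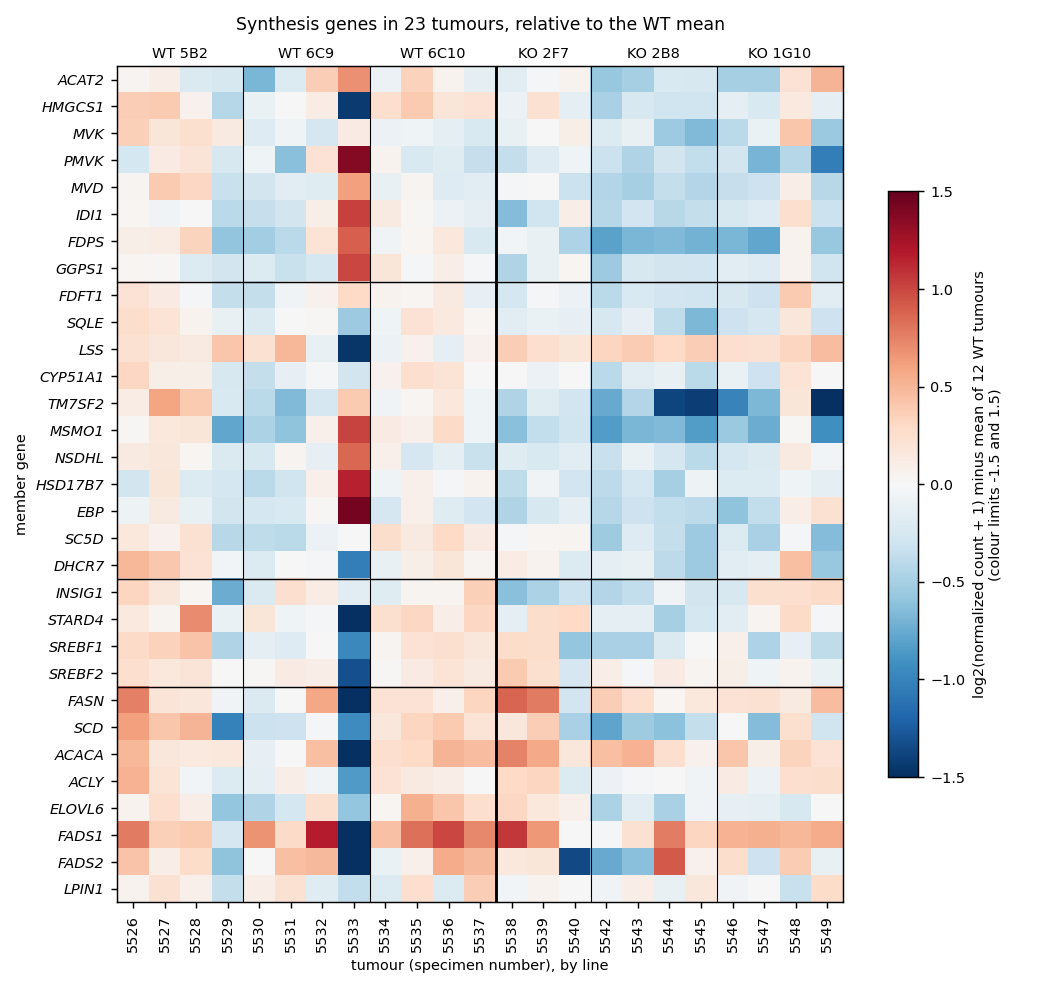
Heat map of the 31 members (rows, grouped by role) in the 23 tumours (columns, by line and specimen number). Colour is log2(normalized count + 1) minus the mean of the 12 WT tumours; most sterol rows are blue in KO columns other than specimen 5548, LSS is red, and specimen 5533 is extreme in both directions.

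Most sterol members had somewhat lower values in KO than in WT tumours, and the fatty acid members differed in both directions, but no member was called. The log2 difference between KO and WT was negative for 18 of 19 sterol members, with a median of -0.23, and for 4 of 8 fatty acid members, with a median of 0.04. It was negative for 45.8% of all genes tested, whose median was 0.03. limma with Benjamini-Hochberg adjustment called 1 of 16063 genes (0.00623%) and 0 of 31 members, whose lowest adjusted p was 0.227. At an unadjusted p under 0.05, 7 members were lower, all in the sterol branch, where 6.63% of all genes were, and 1 was higher, LSS, where 5.9% were. Exon sequence, with which the values of WT specimen 5533 ran, was 1.28 to 7.24 kb in sterol and 5.22 to 13.0 kb in fatty acid members. The contrast of the branches is thus also one of length, whose part was not tested. Without specimen 5533, 18 of 19 sterol members were again negative (median -0.18), 6 of 8 fatty acid members were negative (median -0.08) and 49.8% of all genes were. At an unadjusted p under 0.05, 10 members were then lower, against 7.42% of genes, and 1 was higher, against 6.37%. The lower ones were 4 mevalonate genes, 5 squalene and sterol genes and the regulator SREBF1. Without both shallow libraries, specimens 5532 and 5533, the medians were -0.20 for the sterol and -0.06 for the fatty acid branch, 50% of all genes were negative, and 9 members were lower (5.99% of genes) and 1 higher (4.53%). SREBF1 was again among the lower. Libraries were also weighted by how closely each followed the mean of its genotype. These weights come from the same values and do not measure depth or RNA quality. Specimen 5549 of 1G10, with 16354578 estimated reads, had a weight of 0.45, and shallow specimen 5532 had 0.48. With the weights limma called 738 genes, and 6 members were then called lower, against 3.01% of genes. They were HMGCS1, FDPS, SQLE, TM7SF2, MSMO1 and SC5D, and 21 members were lower at an unadjusted p under 0.05, against 11.3% of genes. All 10 mitochondrially encoded genes examined as a sign of RNA quality also had a negative difference, with a median of -0.39, or -0.20 without specimen 5533, and none was called. Their share of the signal was 1.46% to 6.21% in WT, or up to 3.5% without that specimen, and 1.39% to 2.92% in KO tumours, and its part in the member values was not tested. Bulk values cannot tell fewer cells of a type from less RNA per cell.

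Within the mevalonate pathway all 8 members had a negative difference, and PMVK, MVD and FDPS had the smallest p. FDPS makes farnesyl diphosphate, the branch point between sterols, other isoprenoids and protein prenylation (ENSG00000160752, chr1:155308748-155320667, hg38). Its normalized count was 1349 at the lowest, 2120 at the median and 3782 at the highest in WT tumours, and 1169, 1287 and 2109 in KO tumours. Each of the 11 KO values was under the WT median and 6 lay below every WT tumour, although the ranges overlapped. The means were 2117 ± 650 (SD, n = 12) and 1476 ± 345 (SD, n = 11), with a log2 difference of -0.50 (SE 0.15, limma adjusted p = 0.232). Without specimen 5533, the highest WT tumour, it was -0.41 (adjusted p = 0.199).

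MVD, the decarboxylase that yields isopentenyl diphosphate, was 861, 991 and 1663 at the lowest, median and highest in WT and 770, 852 and 1160 in KO tumours. In KO, 6 tumours were below every WT tumour, and the log2 difference was -0.28 (SE 0.11, limma adjusted p = 0.303). PMVK, phosphomevalonate kinase, was 446, 635 and 1790 in WT and 337, 541 and 664 in KO tumours. Its difference of -0.40 (SE 0.16, limma adjusted p = 0.324) rested in part on specimen 5533, without which it was -0.28. The other 5, the thiolase ACAT2, the synthase HMGCS1, the kinase MVK, the isomerase IDI1 and the geranylgeranyl diphosphate synthase GGPS1, ran from -0.26 to -0.15. Without specimen 5533, IDI1 went from -0.26 to -0.16, GGPS1 from -0.22 to -0.13 and ACAT2 from -0.17 to -0.11. HMGCS1 was lowest in specimen 5533, at 660, and its difference changed from -0.15 to -0.28 without it, at an adjusted p of 0.218 in limma.

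Among the 11 squalene and sterol genes, 10 had a negative difference. MSMO1 (ENSG00000052802, chr4:165327667-165343165, hg38) had the smallest p of the 31. Its normalized counts were 1383 at the lowest, 2503 at the median and 4796 at the highest in WT tumours, and 1259, 1507 and 2408 in KO tumours. Every KO tumour lay below the WT median, and 7 of 12 WT tumours lay above every KO tumour. The highest WT tumour was specimen 5533, and the lowest was 5B2 specimen 5529, which lay among the KO tumours. The means were 2497 ± 869 and 1604 ± 338 (SD, n = 12 and 11), a log2 difference of -0.59 (SE 0.16, unadjusted p = 0.000925, limma adjusted p = 0.227). Without specimen 5533 the difference was -0.50 (adjusted p = 0.176), and without both shallow libraries it was -0.47 (adjusted p = 0.362).

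TM7SF2 had the largest difference of any member, -0.82 (SE 0.23, limma adjusted p = 0.227). It encodes a sterol reductase whose reaction LBR, the lamin B receptor, can also carry out (ENSG00000149809, chr11:65111845-65116385, hg38). Counts were 1075, 1679 and 2549 at the lowest, median and highest in WT tumours and 275, 1065 and 1926 in KO tumours. Of the KO tumours, 6 lay below every WT tumour, the lowest being 1G10 specimen 5549, without which the difference was -0.64, while 1G10 specimen 5548, at 1926, lay above the WT median. LBR had a difference of 0.09 (SE 0.14, limma adjusted p = 0.749).

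SC5D, the desaturase near the end of the pathway, was 1320, 1874 and 2163 in WT and 1118, 1523 and 1805 in KO tumours. Each KO value was again under the WT median, and the log2 difference was -0.27 (SE 0.11, limma adjusted p = 0.329), and -0.26 without specimen 5533. SQLE, a rate-limiting step after squalene, had means of 4677 ± 663 (WT; SD, n = 12) and 3988 ± 567 (KO; SD, n = 11), with a difference of -0.23 (SE 0.09, limma adjusted p = 0.33). It was the only member whose 3 KO line means all lay below the 3 WT line means once both shallow libraries were left out. The squalene synthase FDFT1, the demethylase CYP51A1, the dehydrogenases NSDHL and HSD17B7, the isomerase EBP and the last-step reductase DHCR7 ran from -0.27 to -0.13. In the fit that leaves out specimen 5533, EBP went from -0.27 to -0.14, HSD17B7 from -0.23 to -0.13 and NSDHL from -0.18 to -0.11, while DHCR7 went from -0.15 to -0.24.

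LSS was the exception. It cyclizes the epoxide made by SQLE to lanosterol (ENSG00000160285, chr21:46188141-46228825, hg38). Its counts were 329, 970 and 1280 at the lowest, median and highest in WT tumours and 1024, 1131 and 1251 in KO tumours, so each of the 11 KO values exceeded the WT median. The lowest WT value was that of specimen 5533, and LSS had the most exon sequence of the sterol members (7.24 kb). The log2 difference was 0.31 (SE 0.15, unadjusted p = 0.0459, limma adjusted p = 0.393), and without specimen 5533 it was 0.18 (adjusted p = 0.268).

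**Figure D2:**
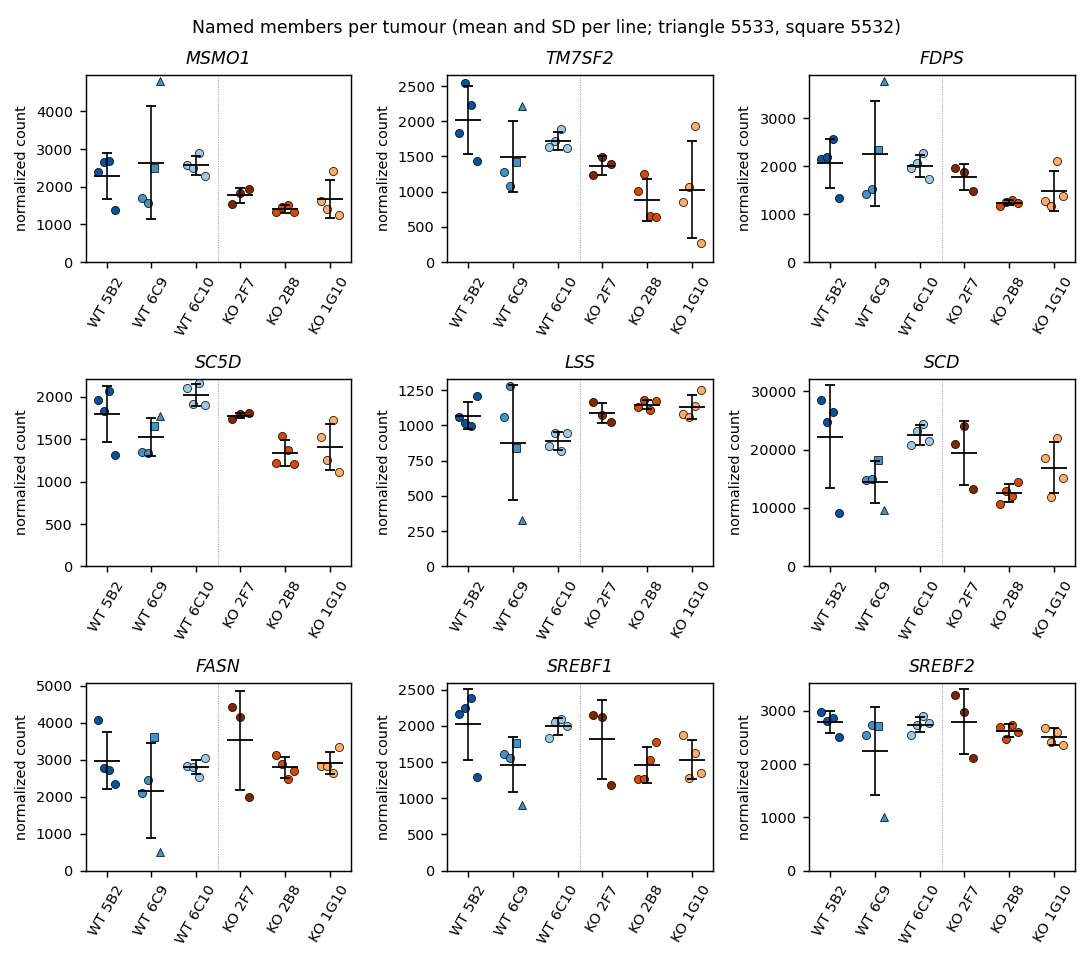
Normalized counts (vertical axis, from 0) of 9 members in every tumour, by line (horizontal axis); points are tumours, the bar is the line mean and the whiskers are 1 SD, with specimen 5533 as a triangle and 5532 as a square. MSMO1 values lie between 1259 and 2408 in KO and 1383 and 4796 in WT tumours. Those of LSS lie between 1024 and 1251 in KO and 329 and 1280 in WT tumours. Specimen 5533 is the highest WT tumour for MSMO1 and the lowest for LSS.

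The 4 regulators and carriers had differences between -0.19 and 0.06. SREBF1 was 905, 1914 and 2384 at the lowest, median and highest in WT and 1180, 1524 and 2144 in KO tumours, and the log2 difference was -0.19 (SE 0.14, limma adjusted p = 0.544). The 905 was specimen 5533, without which the difference was -0.28 (limma unadjusted p = 0.0316, adjusted p = 0.316). SREBF2 was 1005, 2739 and 2985 in WT and 2115, 2607 and 3291 in KO tumours, with a difference of 0.06 (SE 0.13, limma adjusted p = 0.846), which was -0.06 without specimen 5533. INSIG1, itself a target of the pathway, was 461, 792 and 990 in WT and 498, 636 and 943 in KO tumours, a difference of -0.18 (SE 0.13, limma adjusted p = 0.519). The sterol carrier STARD4 differed by -0.04 with specimen 5533 and by -0.21 without it. The ranges of all 4 overlapped between the genotypes.

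In the fatty acid branch the differences had both signs, and those of FASN, ACACA, FADS1, ACLY and FADS2 depended on specimen 5533. SCD (ENSG00000099194, chr10:100347233-100364827, hg38) was 9208, 21168 and 28476 at the lowest, median and highest in WT and 10750.1, 14479 and 23999 in KO tumours. The WT tumours 5B2 specimen 5529 and 6C9 specimen 5533 lay below every KO tumour, and 4 WT tumours lay above every one. The log2 difference was -0.27 (SE 0.20, limma adjusted p = 0.536) and -0.35 without specimen 5533 (adjusted p = 0.411).

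FASN, fatty acid synthase, was 502, 2748 and 4076 in WT and 1984, 2832 and 4421 in KO tumours. Its difference was 0.29 (SE 0.24, limma adjusted p = 0.565), and 0.09 without specimen 5533. ACACA, acetyl-CoA carboxylase, was 137, 1143 and 1405 in WT and 1029, 1237 and 1645 in KO tumours, and its difference of 0.35 (SE 0.27, limma adjusted p = 0.55) was likewise 0.09 without that library. FADS1 went from 0.47 to -0.12, ACLY, which supplies cytosolic acetyl-CoA, from 0.07 to 0.00, and FADS2 from -0.11 to -0.31. The elongase ELOVL6 was at -0.10 and LPIN1 at 0.00, or -0.03 without that library, and none of the 8 had an unadjusted p under 0.05 with all tumours or without specimen 5533.

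**Figure D3:**
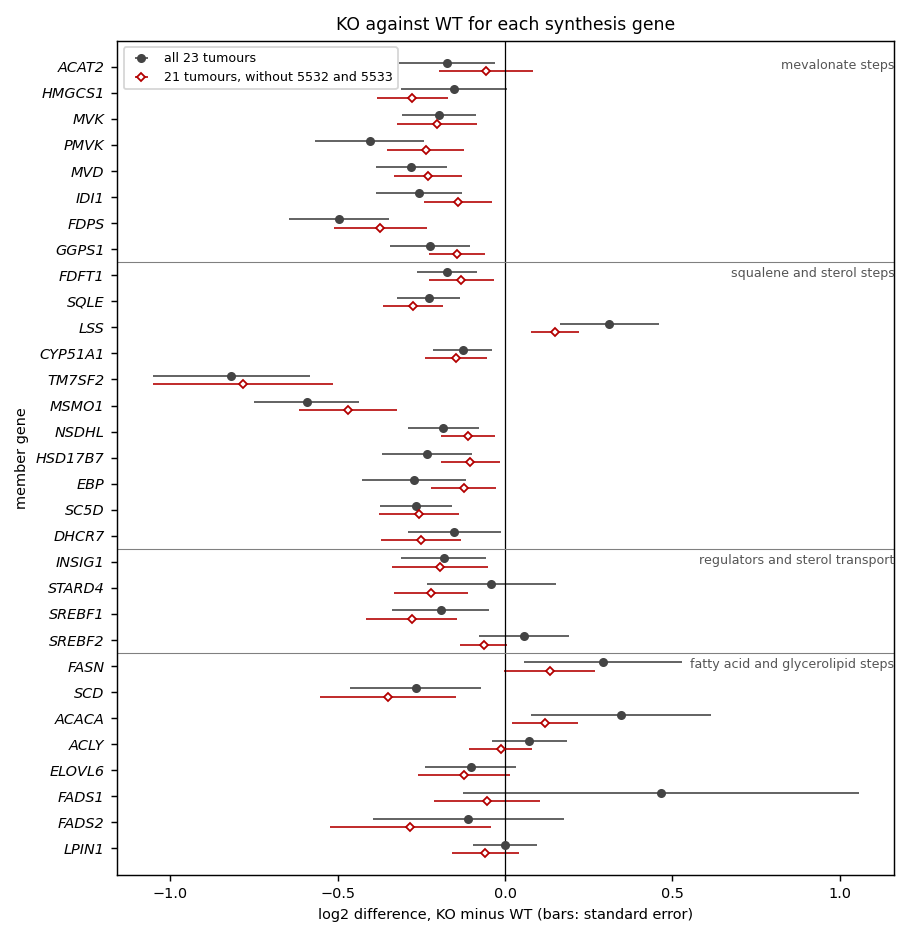
Log2 difference between KO and WT tumours (horizontal axis) for each member (vertical axis, grouped by role), with standard errors, from all 23 tumours (filled circles) and from the 21 tumours without specimens 5532 and 5533 (open diamonds). Of the 19 sterol members only LSS lies right of 0 in either fit, and FADS1, ACACA and FASN move towards 0 or past it without the shallow libraries.

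The sterol differences had their largest median in KO line 2B8, although the lines were not told apart by a test of their difference. Against the mean of the 3 WT lines, which these contrasts share, the median over the 19 sterol members was -0.13 in 2F7, -0.36 in 2B8 and -0.15 in 1G10, where all genes had medians of 0.03, 0.04 and 0.02. In 2F7, 16 of 19 were negative, and in 2B8 and in 1G10 it was 18 of 19. At an unadjusted p under 0.05, 0 sterol members were lower in 2F7 (1.1% of genes), 9 in 2B8 (4.47%) and 5 in 1G10 (5.62%), and 0 were higher in any line, where 1.38%, 3.72% and 4.03% of genes were. MSMO1 differed by -0.43 in 2F7, -0.76 in 2B8 and -0.55 in 1G10, and TM7SF2 by -0.31, -0.99 and -1.03. FDPS differed by -0.21, -0.71 and -0.50, and SC5D by 0.02, -0.40 and -0.34. LSS was 0.26, 0.34 and 0.32 higher. The fatty acid medians were 0.16, -0.01 and 0.10, and SCD differed by 0.02, -0.58 and -0.17. Specimen 5533 bore on these contrasts too. Leaving it out, the sterol medians were -0.09, -0.31 and -0.13 and the fatty acid medians 0.03, -0.19 and -0.07, so the last of these changed sign. The lower sterol members at an unadjusted p under 0.05 were then 0 in 2F7 (2.47% of genes), 13 in 2B8 (6.56%) and 6 in 1G10 (8.05%), and the higher ones 0 (2.92%), 1 (6.1%) and 1 (6.6%), LSS in both. FDPS then differed by -0.11 and SCD by -0.04 in 2F7, and LSS by 0.12, 0.20 and 0.18 in the 3 lines. No gene was called in any of these contrasts by limma after adjustment, with 176 genes lower and 222 higher at an unadjusted p under 0.05 in 2F7, 718 and 598 in 2B8, and 903 and 648 in 1G10.

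The F test of limma over the KO lines called 0 genes. It had 2.22% of genes at an unadjusted p under 0.05, among them SC5D and INSIG1, each with an adjusted p of 1. INSIG1 differed from WT by -0.47 in 2F7, -0.29 in 2B8 and 0.14 in 1G10. Over the WT lines the F test called 1 gene (0.00623%), not a member, and 10.3% were at an unadjusted p under 0.05, among them CYP51A1, SC5D, DHCR7 and ELOVL6, with adjusted p = 0.482 for each. Line means of SC5D were 1797 ± 331 (line 5B2), 1528 ± 221 (6C9) and 2026 ± 128 (6C10; SD, 4 tumours each), and 1781 ± 34.2, 1336 ± 156 and 1407 ± 271 in 2F7, 2B8 and 1G10 (SD, 3, 4 and 4 tumours), so the 2F7 mean lay within the WT line means.

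Over lines rather than tumours, the KO line means lay all below the WT line means for 10 members, 5 of the mevalonate and 5 of the squalene and sterol steps, against 8.87% of all genes, and all above for LSS, against 9.77%. An exact two-sided permutation test of 3 against 3 line means cannot give a p below 0.1. This count rested largely on 1 library: without specimen 5533 it was 3 members (PMVK, SQLE and MSMO1), against 7.32% of genes, with LSS above, against 7.13%. Without both shallow libraries it was SQLE alone, against 5.53%, with none above, against 5.82%, and with libraries rescaled to 1 total it was 5, against 6.15%.

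**Figure D4:**
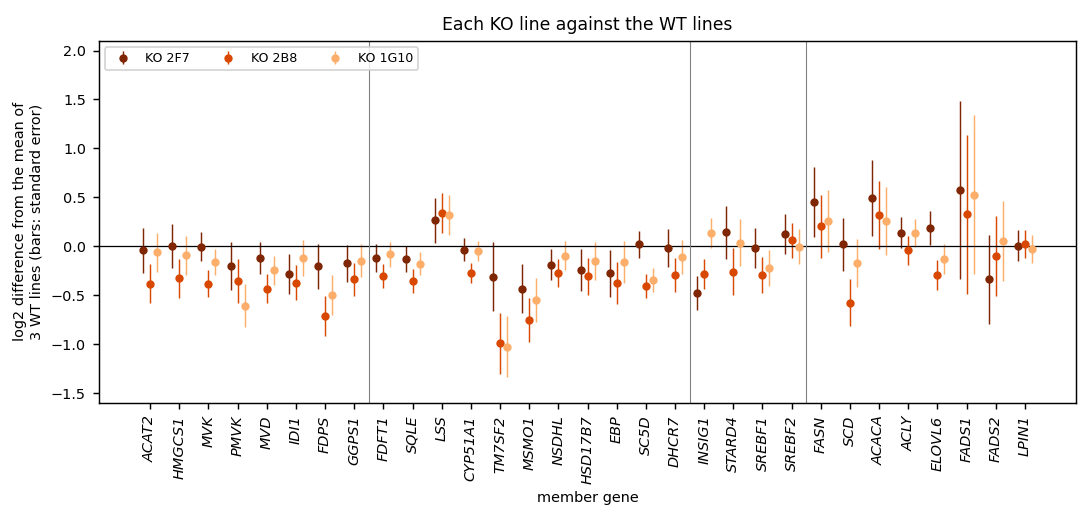
Log2 difference of each KO line from the mean of the 3 WT lines (vertical axis) for the 31 members (horizontal axis, grouped by role), with standard errors; the WT tumours are shared by all 3 contrasts. KO 2B8 is lowest for most sterol members, TM7SF2 reaches -1.03 in 1G10, and LSS is positive in all 3 lines.

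The mean of each branch also varied among single tumours. The mean log2(normalized count + 1) of the 19 sterol members ran from 9.83 to 10.44 in WT, with a median of 10.14, and from 9.66 to 10.26 in KO tumours, with a median of 9.79. In 10 of 11 KO tumours the median sterol member lay below the WT mean, and in 1G10 specimen 5548 it lay 0.15 above, with 3 of 19 members below. In WT tumours 5 of 12 had a median member below the WT mean, among them 5B2 specimen 5529 (17 of 19 members below) and 6C9 specimen 5530 (18 of 19). The fatty acid mean ran from 7.17 to 9.69 in WT and from 8.97 to 9.67 in KO tumours. The 7.17 was specimen 5533, which also had the highest sterol mean, and the next WT value was 8.86, in specimen 5529.

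**Figure D5:**
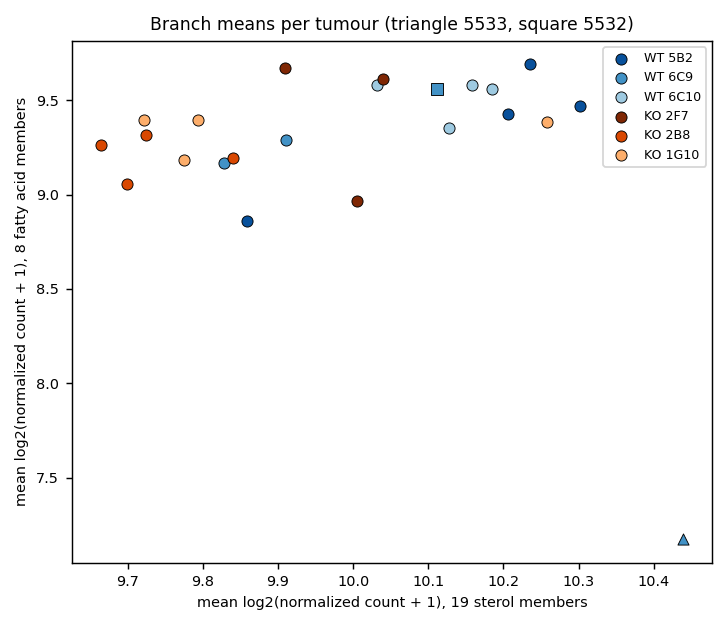
Each point is 1 tumour, with the mean log2(normalized count + 1) of the 19 sterol members on the horizontal axis and of the 8 fatty acid members on the vertical axis, coloured by line. Specimen 5533 (triangle) lies alone at 10.44 and 7.17, and the KO 2B8 tumours have sterol means of 9.66 to 9.84.

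Across tumours, several members varied with SREBF1. Of the other 30 members, 13 had a positive Pearson correlation at an adjusted permutation p under 0.05, against 7.73% of genes, and 7 by Spearman rho, against 2.36%. Without both shallow libraries the count was 10 by Pearson r, against 3.24%, and 10 by rho, against 3.64%. No member was negative by either measure, where 4.77% and 1.58% of genes were over all tumours and 3.64% and 3.42% without the shallow libraries. SCD was closest, with r = 0.90 and rho = 0.91 over 23 tumours (each p = 1e-05, the smallest that 100000 permutations give, adjusted p = 0.00191 and 0.00434). Leaving out the 2 tumours farthest from the median of SREBF1, r was 0.91. HMGCS1 had r = 0.81 (p = 3e-05, adjusted p = 0.00297) and rho = 0.76 (p = 2e-05, adjusted p = 0.00545), and r = 0.76 without the 2 farthest. MSMO1 had r = 0.15 (p = 0.486) and rho = 0.44 (p = 0.0355) over all tumours, but r = 0.67 and rho = 0.66 without both shallow libraries (p = 0.00146 and 0.00139, adjusted p = 0.0301 and 0.03). LSS had r = 0.30 (p = 0.148) and rho = -0.28 (p = 0.201) over all tumours, and r = -0.48 without them (adjusted p = 0.176).

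Within lines no member passed. After line means were subtracted and values permuted within lines, 0 members passed for SREBF1 by either measure, where 0 of all genes passed in the positive direction and 0.0249% and 0.0498% in the negative. With both shallow libraries left out it was again 0 members, where 0.0311% and 0.0125% of genes were positive and 0.0934% and 0.0685% negative. With line means subtracted and the shallow libraries kept, SCD had r = 0.88 and rho = 0.85 (permutation p = 0.00026 and 0.00025, adjusted p = 0.0951 and 0.0867). In the same setting MSMO1 had r = -0.09 and rho = 0.05 (permutation p = 0.75 and 0.843). Specimen 5533 had the highest MSMO1 (4796) and the lowest SREBF1 (905) of all tumours, so it weighs on the MSMO1 values. For SREBF2, 10 members were positive and 3 negative by Pearson r over all tumours, where 22.7% and 18.2% of genes were, and 4 were positive and 0 negative by rho, where 0.299% and 0.168% of genes were. Without both shallow libraries, and within lines, 0 members and 0 genes passed for SREBF2. The points of each correlation share library depth and line.

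Several members ranked the tumours much as KRT10, a keratin of differentiating keratinocytes, did. The tumours expressed all 9 keratinocyte markers examined, with a summed level of 721899 (specimen 5533) to 1095190 in WT and 783320 to 1043980 in KO tumours. None was called, 3 of the 9 differences were negative and 6 positive, and their median was 0.29, or 0.18 without specimen 5533. KRT1 and KRT10, keratins of differentiating layers, differed by -1.17 and -0.92 (limma adjusted p = 0.303 and 0.342), and SFN by -0.08. The basal keratins KRT5 and KRT14 differed by 0.33 and 0.27, the basal transcription factor TP63 by 0.33, and the adhesion genes DSG3, CDH1 and EPCAM by 0.38, 0.33 and 0.29. KRT10 was 75726 at the lowest and 267276 at the highest in WT and 6798 and 181589 in KO tumours, and the 6798 was 1G10 specimen 5549, the tumour with the lowest TM7SF2. KRT1 was also lowest there, at 2063. The next lowest KO tumour, 1G10 specimen 5547, was at 65250 for KRT10 and 20522 for KRT1. The differences of both keratins thus rest in part on specimen 5549. By Spearman rho over 23 tumours, 16 of 31 members were positively correlated with KRT10 at an adjusted permutation p under 0.05, against 6.75% of genes, and 1, LSS, negatively, against 5.23%. By Pearson r it was 2 and 0, where 4.15% and 1.68% of genes were. When both shallow libraries were left out, 17 were positive by rho, against 8.98%, and 7 by r, against 8.76%, with LSS alone negative by both, against 7.82% and 6.06%. This relation was examined after the data were seen.

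SC5D had rho = 0.84 with KRT10 (p = 2e-05, adjusted p = 0.00154) and r = 0.72 (p = 1e-05, adjusted p = 0.000815). MSMO1 had rho = 0.79 (p = 3e-05, adjusted p = 0.00187) and r = 0.54 (p = 0.0136, adjusted p = 0.148), and LSS had rho = -0.66 (p = 0.00087, adjusted p = 0.0152) and r = -0.24 (p = 0.134, adjusted p = 0.454). Leaving out the 2 tumours farthest from the median of KRT10, r was 0.81 for SC5D, 0.58 for MSMO1 and -0.20 for LSS. Within lines 0 members and 0 genes passed, and without the shallow libraries 0 members did, where 0.112% of genes by rho and 0.205% by r were positive and 0.0374% and 0.0809% negative. Within lines SC5D had r = 0.64 (p = 0.00811, adjusted p = 0.396). The part of KRT10 in the KO and WT values was not tested.

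Cells that make lipid in quantity were checked by their markers. Of 8 sebocyte markers 4 were in the table, AWAT1, AWAT2, MOGAT1 and MC5R being absent from it, and their sum was 624 to 2278 in WT and 317 to 1193 in KO tumours. Of these the keratin KRT79 was 467 to 2046 in WT and 49.9 to 969 in KO tumours (log2 difference -1.40, limma adjusted p = 0.227), and SOAT1 was 82.2 to 166 and 117 to 264. For KRT79 the 49.9 was 1G10 specimen 5549, and the next lowest KO value was 281. Of 8 adipocyte markers 2 had a mean of at least 10, ADIPOQ was not listed, and the sum was 25.0 to 125 in WT and 38.01 to 83.7 in KO tumours. Fibroblast markers summed to 2476 (specimen 5533) to 16933 in WT and 3867 to 28595 in KO tumours, and skeletal muscle markers to 35.8 to 14108 and 192 to 14122. The difference was positive for 6 of 7 fibroblast and 6 of 8 muscle markers, with 0 called. Without both shallow libraries it was positive for 6 of 7 and 8 of 8. Host transcripts may map to human genes, and the part of these cells in the member values was not tested.

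Other genes of lipid metabolism gave 0 calls in each of 6 lists by limma after adjustment, the lowest adjusted p being 0.227. Among 11 genes of SREBP processing and stability, 6 differences were negative and the smallest p was that of RNF139, a membrane ubiquitin ligase (-0.19). Of 9 genes of LXR signalling and sterol efflux 4 were negative, and SOAT1, which esterifies cholesterol, had the smallest p (0.23). Of 9 sterol trafficking genes 2 were negative, and the lysosomal lipase LIPA had the smallest p (0.14). Among 13 other sterol and isoprenoid genes 8 were negative, with 3 lower at an unadjusted p under 0.05, where 6.63% of all genes were, or 1 without specimen 5533, and the smallest p was that of FAXDC2 (-1.20). Among 26 other fatty acid and glycerolipid genes 14 were negative, with 7 lower and 1 higher at an unadjusted p under 0.05, where 6.63% and 5.9% of all genes were. The smallest p was that of DGAT2, an enzyme of triglyceride synthesis (-0.80, SE 0.22), and the higher gene was ACSL4, an acyl-CoA synthetase (0.52). Of 9 genes of fatty acid oxidation 5 were negative, with the smallest p for ACADVL, the very long chain acyl-CoA dehydrogenase (-0.36), while PPARA, a nuclear receptor that switches on oxidation genes, was the 1 higher at an unadjusted p under 0.05 (0.32). Medians of these 6 lists lay between -0.06 and 0.14, where all genes had 0.03.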

How the data were processed

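Poly(A) RNA was sequenced from directional libraries of flash frozen tumours, per the labels' protocols. The deposited table holds the authors' normalized counts, a signal per gene and tumour that is scaled between libraries and not per length. STAR, DESeq2 and hg38 are named in the submitters' processing notes, without versions or roles, and neither the use of strand nor the treatment of mouse reads is stated. Reads per library were estimated as the deposited total over the value of 1 read. That value was the most frequent positive value, or a smaller step where that was also common, as in specimen 5533. Of low values, 70.7% to 83.9% per library were whole multiples of it, so the estimates are approximate.

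Genes with a mean of at least 10 were analysed as log2(value + 1), a scale that compresses changes at low levels. Genotypes were compared in limma 3.58.1 (R 4.3.3) with a trended prior, line as a random block (consensus correlation 0.00766) and Benjamini-Hochberg adjustment over 16063 genes at 0.05. Lines entered as 6 fixed groups for F tests and for each KO line. The fits were tested on simulated data. Correlations used 100000 two-sided permutations, adjusted over 16062 genes for each factor and measure (SREBF1, SREBF2 and, added later, KRT10, with 4 settings each). No list was tested.

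Per-tumour values are given for the 3 members of smallest p in the mevalonate, sterol and fatty acid groups and for INSIG1, SREBF1 and SREBF2. LSS was added as the only sterol member of opposite sign, and SQLE for its line means, after values were seen. In other lists the gene of smallest p is named. The members and lists were chosen with earlier results of these data known. Promoters are from RefSeq, and exon lengths from GENCODE 29. Alternatives covered the pseudocount, filter, scaling, shallow libraries, line handling, library weights and leaving out each tumour.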

Additional observations from a re-analysis of the deposited data

Results flagged for a closer look

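Within each line of 4 tumours, the highest and lowest tumour of every member was compared with the other 3. In 14 of 155 such groups, 1 tumour lay far from the others on the log2 scale by Dixon's criterion, where chance gives about 1 in 20. Of the 14, 7 lay outside specimen 5533 and are listed in the next paragraph, a number about as large as chance gives. The other 7 were WT 6C9 specimen 5533. There HMGCS1 (659.7), STARD4 (118.8), SREBF2 (1005) and FADS1 (0) were low, where the other 3 tumours were at least 1668, 412, 2541 and 102. MVD (1663), GGPS1 (1160) and EBP (2037) were high in it, where the others reached at most 976, 503 and 758.

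In WT 5B2, specimen 5529 was low for MSMO1 (1383), SREBF1 (1298) and SCD (9208), where the other 3 tumours of the line were at least 2405, 2161 and 24814. Its KRT10 value, 95624, was the lowest of the line. In the same line HSD17B7 was high in specimen 5527 (189.2, others at most 144) and ACACA in specimen 5526 (1392, others at most 1110). In KO 1G10, SQLE was high in specimen 5548 (5191, others at most 3890) and INSIG1 was low in specimen 5546 (653.7, others at least 911).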

How the results depend on the processing

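No paired analysis was possible because no specimen number is shared between the groups. No member was called with the pseudocount, filter, scaling, block or shallow-library alternatives, or in any fit without 1 tumour. In the fit with library weights, taken from each tumour's distance to its genotype mean, specimen 5533 had a weight of 0.0287. There limma called 738 genes, and 6 members were lower (adjusted p 0.0103 to 0.0358), with 21 lower at an unadjusted p under 0.05. The weights for the line fits did not converge and are not used. The count of all genes called, 1, was 0 with libraries rescaled to 1 total, without both shallow libraries and with 6 line means as units. Without 1 tumour it was 0 to 2, 0 to 2 among WT lines, 0 to 0 among KO lines and in 2F7, 0 to 17 in 2B8 and 0 to 26 in 1G10. The highest were without 5B2 specimen 5529 for 2B8 and without 6C9 specimen 5531 for 1G10.

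The sterol median stayed negative in all 34 fits, from -0.26 to -0.18, and the fatty acid median ran from -0.12 to 0.09. Without 1 tumour the sterol medians were -0.26 to -0.18 for KO against WT, -0.17 to -0.09 for 2F7, -0.39 to -0.31 for 2B8 and -0.25 to -0.09 for 1G10, and the fatty acid medians were -0.08 to 0.06, 0.03 to 0.29, -0.19 to 0.08 and -0.07 to 0.19. The number of members with KO line means all below the WT ones was 5 with libraries rescaled, 1 without both shallow libraries and 3 to 11 without 1 tumour. Lower members at an unadjusted p under 0.05 were 6 to 11 without 1 tumour.

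Signs changed for members near 0. STARD4 was 0.010 with libraries rescaled and LPIN1 0.050. Without both shallow libraries SREBF2 was -0.064, ACLY -0.013 and FADS1 -0.054, and with library weights they were -0.072, -0.069 and -0.17. Without 1 tumour STARD4 ran from -0.21 to 0.023, SREBF2 from -0.064 to 0.088, ACLY from -0.0028 to 0.12, FADS1 from -0.12 to 0.58, FADS2 from -0.31 to 0.016 and LPIN1 from -0.034 to 0.033. Positive correlations with SREBF1 were 0 within lines, with or without the shallow libraries, by r and by rho. Those with SREBF2 were 0 without the shallow libraries and 0 within lines. Those with KRT10 were 7 by r without the shallow libraries, and 0 within lines by r and rho with or without them. The cause of these changes was not tested.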

Other observations

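Genes of fatty acid elongation that are not among the 31 members differed in both directions and were not called. They were grouped after their values were seen. ELOVL4, the elongase of very long chain fatty acids in skin, had means of 2414 ± 865 (WT; SD, n = 12) and 1302 ± 667 (KO; SD, n = 11), a log2 difference of -0.99 (SE 0.29, limma adjusted p = 0.227). ELOVL1 was 2204 ± 427 and 1655 ± 490, a difference of -0.44 (SE 0.14, limma adjusted p = 0.244), and TECR, the reductase of the elongation cycle, was 1453 ± 146 and 1249 ± 151, a difference of -0.22 (SE 0.07, limma adjusted p = 0.244). ELOVL3, ELOVL7 and HSD17B12 differed by -0.73, -0.47 and -0.15, and ELOVL5 and HACD3 by 0.12 and 0.11. ELOVL4 was lowest in 1G10 specimen 5549 (375) and highest in 6C9 specimen 5533 (3928).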
